A study of Mus musculus with 2 samples.

Results

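The uroplakin genes Upk1b and Upk3a were followed in 2 lung tumor sections, as 2 of the 479 genes of the Xenium In Situ panel. Xenium detects RNA molecules in place with gene-specific probes and assigns each to a segmented cell. The genes were chosen by a rule that used these sections: which cells held their transcripts, whether the same cells held both, and the ratio of the sections in neuroendocrine (NE) tumor cells and in other cells. Section ratios and co-detection are therefore given as a description. In mouse assembly GRCm38.p6, RefSeq places Upk1b at chr16:38773182-38800203 and Upk3a at chr15:85017141-85022560. The positions of the probes within the genes are not given in the sources used here.

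Uroplakins are membrane proteins that pack into the rigid plaques of the bladder umbrella cell surface. UPK1B, a tetraspanin, pairs with the single-pass protein UPK3A, and UPK1A pairs with UPK2. Outside the bladder, Upk1b and Upk3b are known from mesothelium, the cell sheet that covers the lung, and Upk3a from a subset of club-like airway cells near the neuroepithelial bodies where pulmonary NE cells lie.

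The sections came from mice in which Rb1, Trp53 and Rbl2 were deleted in the lung by adenoviral Cre, given through the trachea at 10 weeks of age. The RPR2 section is from such a mouse with intact Cracd. The CRPR2 section adds the Cracd knockout, which is germline and so present in every cell of that lung, whereas the other deletions are limited to Cre-infected cells and their progeny. With 1 section per genotype there is no replicate check and no test, the mouse cannot be told apart from the genotype, and the 95% intervals cover counting error only.

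Once cells of under 20 transcripts had been removed, 152915 cells remained in the RPR2 section and 340609 in the CRPR2 section, with a median of 101 transcripts in each. Levels are transcripts of the gene per 1000000 panel transcripts (CPM), summed over a set of cells, and they are compared between sections and cell sets but not between genes, since probes differ. The NE score of a cell is the sum of its Chga, Chgb, Scg5, Snap25 and Celf3 transcripts. Cells scoring 4 or more are called NE-high (13782 in RPR2 and 160674 in CRPR2) and cells scoring 0 to 1 NE-low (136510 and 137569). Normal pulmonary NE cells would also be NE-high. The 8 NE genes kept out of the score, among them Insm1 and Scg2, were 4.43 to 7.59 log2 units higher in NE-high than in NE-low cells of RPR2 and 3.08 to 4.27 in CRPR2. The NE-low cells of CRPR2 held more NE transcripts than those of RPR2, with Scg2, a granin of secretory granules, at 1025 CPM against 106 CPM. The 20 negative control probes, which match no mouse RNA, averaged 2.72 CPM for RPR2 and 2.29 CPM for CRPR2, with a highest value of 9.94 CPM.

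Upk1b had opposite section ratios in tumor-range and other cells. In NE-high cells it stood at 235 CPM (212 to 259) in RPR2 compared with 24.4 CPM (22.2 to 26.8) in CRPR2, which gives a log2 ratio of CRPR2 over RPR2 of -3.26 (-3.46 to -3.06). In NE-low cells it stood at 311 CPM (302 to 320.1) in RPR2 compared with 692 CPM (679 to 705) in CRPR2, which gives a log2 ratio of 1.15 (1.10 to 1.21). Over all cells the sections were nearly level, at 311 and 298 CPM. Among the 288 genes with at least 100 CPM in NE-high cells of a section, 1 had a lower log2 ratio than Upk1b, and 8.33% were 1 log2 unit or more towards RPR2. Among the 357 such genes in NE-low cells, 79 had a higher log2 ratio than Upk1b, and 25.2% were 1 log2 unit or more towards CRPR2. The rule used the ratios of Upk1b, so these ranks are a description only. In NE-high cells Upk1b was over 100 CPM in RPR2 only.

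Most Upk1b transcripts lay outside the tumor range in both sections. NE-low cells held 88.6% of them in RPR2 and 93.6% in CRPR2, and NE-high cells 7.60% and 4.10%. At least 1 Upk1b transcript was found in 2.15% of the NE-high cells of RPR2 (297 cells) and in 0.266% of those of CRPR2 (428 cells). In NE-low cells the shares were 2.42% (3308 cells) and 5.32% (7319 cells). Holding cells had more transcripts in all than the other cells of their range, with medians of 122 against 99 in RPR2 NE-low cells and 133 against 98 in CRPR2 NE-low cells.

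Upk3a went towards CRPR2 in both ranges, so its section ratios were not opposite. In NE-high cells it stood at 1180.3 CPM (1128 to 1234) in RPR2 compared with 3067 CPM (3042 to 3092) in CRPR2, which gives a log2 ratio of 1.38 (1.31 to 1.44). In NE-low cells it stood at 76.9 CPM (72.5 to 81.6) in RPR2 compared with 1990.3 CPM (1968 to 2013) in CRPR2, which gives a log2 ratio of 4.69 (4.61 to 4.78) and 25.9-fold. None of the 357 genes compared in NE-low cells had a higher log2 ratio. In NE-high cells 10 of the 288 genes had a higher one, and 6.25% of the genes were 1 log2 unit or more towards CRPR2. The rule used the ratios of Upk3a too, so these ranks are a description only. In NE-low cells Upk3a was over 100 CPM in CRPR2 only. The difference between the ranges, NE-high minus NE-low, was -4.42 log2 units for Upk1b and -3.32 log2 units for Upk3a.

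NE-high cells held 53.7% of the Upk3a transcripts in RPR2 and 51.7% in CRPR2, and NE-low cells 30.8% and 27.0%. The share of NE-high cells with at least 1 transcript was 10.1% (1391 cells) in RPR2 and 22.3% (35887 cells) in CRPR2. In NE-low cells it was 0.564% (770 cells) and 9.97% (13711 cells). Of these NE-low holding cells, 25.5% in RPR2 and 47.9% in CRPR2 held 2 or more Upk3a transcripts, up to 8 and 23 in a cell.

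The NE score itself separated the genes further. Upk3a was highest at a score of 2 in both sections, at 2978 CPM in RPR2 compared with 7099 CPM in CRPR2, and lower on both sides of it. At a score of 0 it was at 51.2 and 1199 CPM, and at 15 or more at 760 and 1827 CPM. Upk1b in CRPR2 was highest at a score of 0, at 775 CPM, and lower at every step, down to 15.0 CPM at 15 or more. Upk1b in RPR2 instead had its highest level at a score of 2, at 952 CPM, against 303 CPM at 0 and 109 CPM at 15 or more. The shares of holding cells changed less over the NE-high scores. Upk3a was held by 11.2% of cells both at 4 to 5 and at 15 or more in RPR2. In CRPR2 these shares were 23.2% and 23.1%. For Upk1b they were 2.85% and 1.81% in RPR2 and 0.319% and 0.275% in CRPR2.

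Around the NE-high limit, at scores of 3 and of 4 to 5, Upk1b was at 873 and 468 CPM in RPR2 and at 48.3 and 38.2 CPM in CRPR2. Upk3a was at 2249 and 2084 CPM in RPR2 and at 6064 and 4434 CPM in CRPR2. Just inside the NE-low limit, at a score of 1, Upk1b was at 583 and 238 CPM and Upk3a at 951 and 6295 CPM, and just outside it, at 2, Upk1b in CRPR2 was at 94.4 CPM. The median total of a cell was 100 and 103 transcripts at scores of 0 and 1 in RPR2 and 103 and 80 in CRPR2. It was 68 in RPR2 and 73 in CRPR2 at a score of 2, and from there upward it was higher with the score or level with it, up to 170 and 177 at 15 or more.

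**Figure D1:**
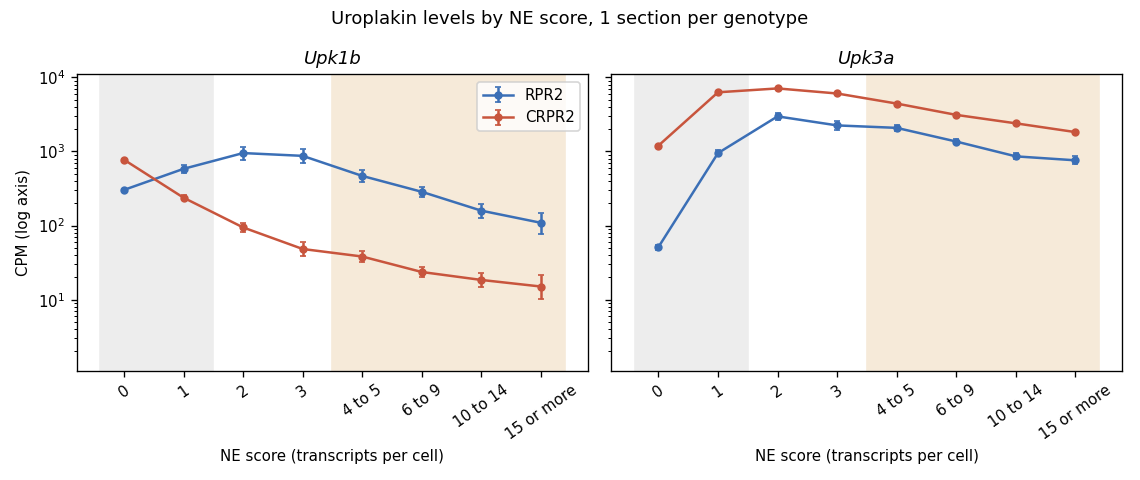
Level of Upk1b (left) and Upk3a (right) in CPM, on a log axis, by the NE score of the cell, for the RPR2 section (blue) and the CRPR2 section (red), with 95% Poisson intervals. Grey marks the NE-low and beige the NE-high scores. The Upk1b lines cross between a score of 0 (303 and 775 CPM) and of 1 (583 and 238 CPM), and the Upk3a line of CRPR2 lies above that of RPR2 at every score.

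To see which other cells held the genes, NE-low cells were divided by gates on lists of marker genes that left out Upk1b and Upk3a. A cell takes the list with most transcripts, where these are at least 3 from at least 2 of its markers. A gate is a range of marker counts and not a cell type. The leading genes included Upk3b, Msln and Muc16 for the mesothelial gate, Tff2, Scgb3a1, Reg3g and Agr2 for the secretory airway gate, Lamp3 and Slc34a2 for the AT2 (alveolar type 2) gate, and Lum, Pi16 and Gli1 for the fibroblast gate. In CRPR2 the secretory airway gate was also led by Krt5, Krt13 and Muc16.

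Mesothelial-gated cells had the highest Upk1b level of the gates in both sections. It was 8758 CPM (8108 to 9447) over 874 cells in RPR2 and 10498 CPM (9462 to 11616) over 391 cells in CRPR2, which gives a log2 ratio of 0.26 (0.08 to 0.45). Of these cells 44.5% in RPR2 and 54.5% in CRPR2 held Upk1b. Upk3a had 1 transcript there in RPR2 and 0 in the 391 cells of CRPR2, which allows a share of holding cells of up to 0.767%. The mesothelial gate was small and gave 15.0% of the NE-low Upk1b transcripts in RPR2 and 3.60% in CRPR2. Counting instead every NE-low cell with at least 1 transcript of Msln, the gene of the mesothelial surface protein mesothelin, gave 41.2% and 11.7%. Msln was not limited to the mesothelial gate, so this count takes in other cells. In secretory-airway-gated cells of RPR2 it was at 5284 CPM in cells with Upk1b and 2067 CPM in the others.

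In airway epithelium gates Upk1b was lower in CRPR2, and in stromal and alveolar gates it was higher. In secretory-airway-gated cells it was at 2337 CPM (2245 to 2431) in RPR2 compared with 840.5 CPM (798 to 884) in CRPR2, 2.78-fold lower in CRPR2. For Upk1b, ciliated-gated cells were at 825 CPM (766 to 887) and 702 CPM (611 to 803), which gives a log2 ratio of -0.23 (-0.46 to -0.01). In fibroblast-gated cells Upk1b was at 64.4 CPM (53.6 to 76.7) in RPR2 compared with 2160.2 CPM (2096 to 2226) in CRPR2, 33.6-fold higher in CRPR2, and the share of these cells that held it was 0.634% and 15.5%. Endothelial-gated cells were at 29.8 CPM (25.4 to 34.8) in RPR2 compared with 477 CPM (455 to 500.2) in CRPR2. AT2-gated cells were at 51.9 CPM (42.8 to 62.3) in RPR2 compared with 458 CPM (436 to 481) in CRPR2. Macrophage-gated cells, which are not known to use the gene, were at 31.2 CPM (14.3 to 59.2) in RPR2 compared with 107 CPM (85.4 to 131) in CRPR2, with holding shares of 0.392% and 1.60% at median totals of 120 and 152 transcripts. The fibroblast gate had median totals of 103 and 110.

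The NE-low Upk1b transcripts lay in different gates in the sections. In RPR2, 54.5% lay in the secretory airway gate, 16.2% in the ciliated gate and 2.79% in the fibroblast gate. In CRPR2, 14.4% lay in the secretory airway gate, 2.05% in the ciliated gate and 41.2% in the fibroblast gate, with 16.3% in the endothelial and 15.3% in the AT2 gate. Of the Upk1b level of all NE-low cells, the fibroblast gate gave 8.66 CPM in RPR2 and 285 in CRPR2, and the secretory airway gate 169 and 99.3. Fibroblast-gated cells were 13.1% of the NE-low cells in RPR2 and 12.1% in CRPR2. Without them, NE-low Upk1b was at 349 CPM in RPR2 compared with 469 CPM in CRPR2, which gives a log2 ratio of 0.43.

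**Figure D2:**
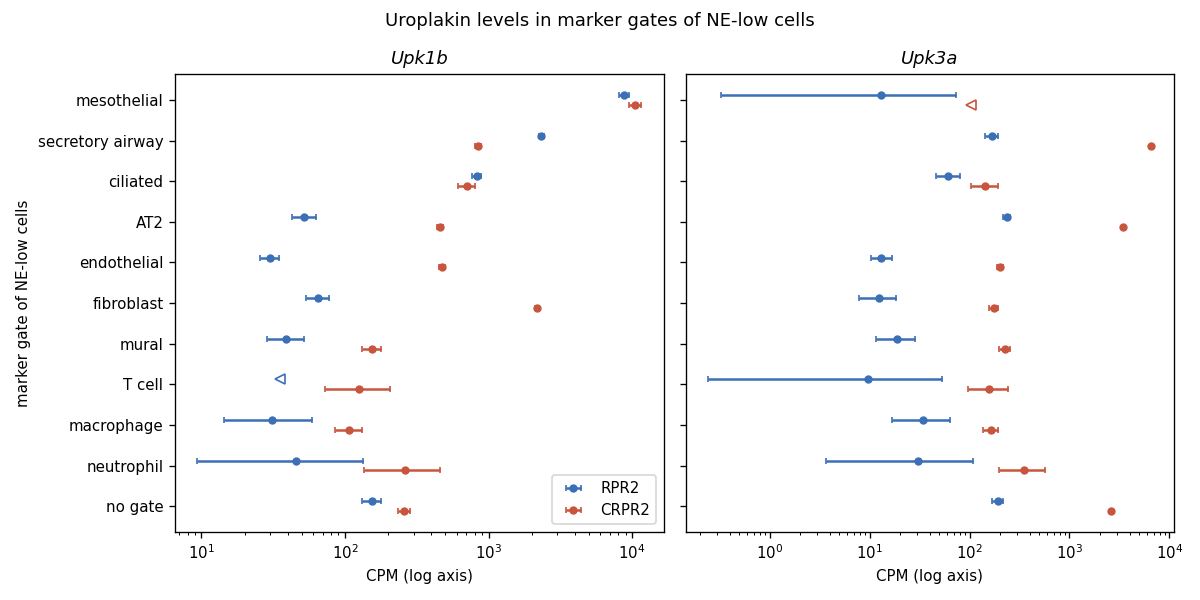
Level of Upk1b (left) and Upk3a (right) in CPM, on log axes that differ between the panels, in marker gates of NE-low cells of RPR2 (blue) and CRPR2 (red), with 95% Poisson intervals. Open triangles mark the upper limit where no transcript was seen. The cartilage gate and the ionocyte and proton pump gate are not shown. Among the gates shown, the sections stand far apart for Upk1b in the fibroblast gate (64.4 and 2160.2 CPM) and for Upk3a in the secretory airway gate (167 and 6569.8 CPM).

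**Figure D3:**
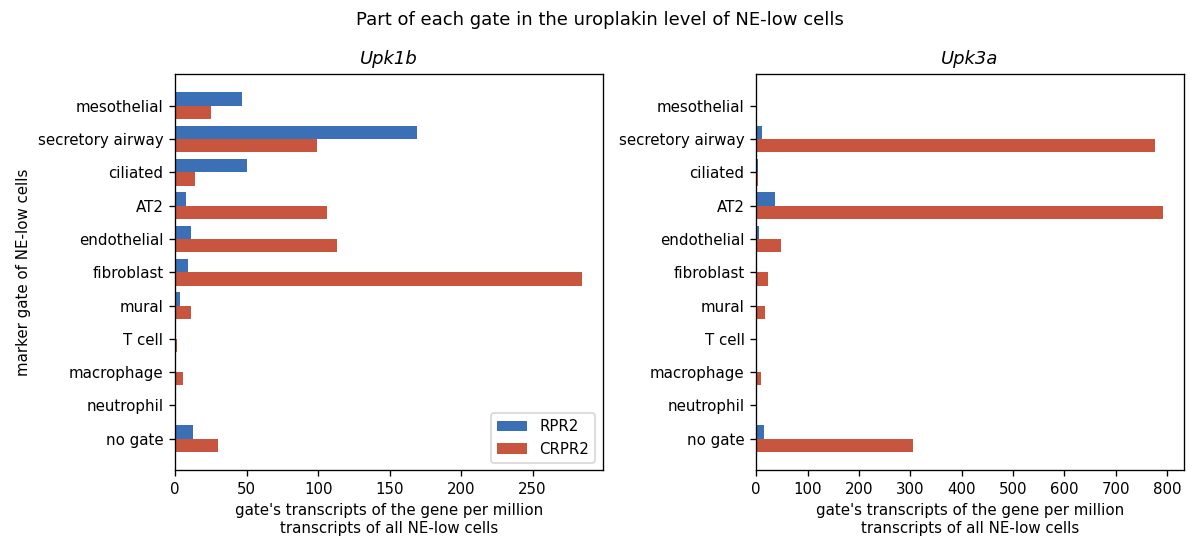
Part of the Upk1b (left) and Upk3a (right) level of all NE-low cells, in CPM, that each marker gate shown gave, in RPR2 (blue) and CRPR2 (red). The ionocyte and proton pump gate and the cartilage gate are not shown. For Upk1b the longest bar is the secretory airway gate in RPR2 (169) and the fibroblast gate in CRPR2 (285). For Upk3a the secretory airway and AT2 gates of CRPR2 are the longest (776 and 793).

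The cells that held Upk1b within a gate were set against the other cells of that gate, for gates chosen after the levels had been seen, and the 10 genes with the largest log2 ratio were taken. In RPR2 the few fibroblast-gated, endothelial-gated and AT2-gated cells that held it were led by the mesothelial genes Upk3b, Msln and Muc16. In the 113 fibroblast-gated holding cells of RPR2, Upk3b was at 3858 against 104 CPM, Msln at 2627 against 89.7 CPM and Muc16 at 985 against 35.8 CPM. The remaining mesothelial marker, Igfbp6, was not higher there, and all 4 summed to 17485 against 11735 CPM, with 3 of 4 higher where 43.8% of panel genes were. In the 146 endothelial-gated holding cells of RPR2 the 4 mesothelial markers summed to 24082 against 2257 CPM, with 4 of 4 higher where 48.4% of panel genes were. In the 102 AT2-gated holding cells of RPR2 they summed to 31101 against 4289 CPM, with 4 of 4 higher where 47% of panel genes were.

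In CRPR2 the 2583 fibroblast-gated holding cells were led by Col17a1, a hemidesmosome gene, at 707 against 159 CPM. Mlc1, Oit3, Prom1, Lrp2 and Vsnl1 were also among the 10, with log2 ratios of 1.55 to 1.93. Itga8, an integrin of lung fibroblasts and one of the markers of the gate, was at 23812 against 6709 CPM. Snai2, a transcription factor of mesenchymal and basal cells, was at 4645 against 1425 CPM, and Mettl7a2 at 10857 against 3635 CPM. Upk3b was again among the 10, at 314 against 75.3 CPM, but Msln and Muc16 were not. Of the mesothelial markers 3 of 4 were higher. Their sum was lower, at 3349.8 against 7082 CPM, through the remaining marker alone. Igfbp6, a marker on this list, was not limited to the mesothelial gate and was held by 12.0% of all NE-low cells of CRPR2. Of the 8 endothelial markers 8 of 8 were higher in these cells (28630.2 against 19198 CPM in sum), as were 4 of 4 AT2 markers (29727 against 11648 CPM), where 36.7% of panel genes were. Of the fibroblast markers, which include Itga8, 3 of 8 were higher, a share near that of all panel genes, and they summed to 129726 against 127342 CPM.

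Endothelial-gated and AT2-gated cells of CRPR2 that held Upk1b carried more fibroblast transcripts than the others of the gate. The 8 fibroblast markers summed to 38184 against 19889 CPM in endothelial-gated cells, with 5 of 8 higher where 29.6% of panel genes were. They summed to 44300.2 against 13000.3 CPM in AT2-gated cells, with 7 of 8 higher where 39.8% of panel genes were. In RPR2 the same markers summed to 21744 against 18920.3 CPM and 20789 against 19743 CPM. There 7 of 8 and 6 of 8 were higher, where 48.4% and 47% of panel genes were. Itga8 alone was at 6374 against 2029 CPM in the endothelial and at 8128 against 1526 CPM in the AT2 gate of CRPR2. Mesothelial genes were higher in these CRPR2 cells too. Upk3b ranked first in the endothelial gate, at 233 against 44.0 CPM, with Msln also among the 10 at 253 against 122 CPM, and Upk3b was at 374 against 48.7 CPM in the AT2 gate. The mesothelial markers summed to 1623 against 1011 CPM and 2776 against 1581 CPM, with 4 of 4 higher in both gates. Cells were outlined by growing the nucleus outward, so a cell can take in transcripts of a neighbor, and the part of this in the levels was not tested.

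In the secretory airway gate of RPR2 the holding cells were led by Muc16, a large surface mucin, at 172 against 25.0 CPM, the serpin Serpinb11 at 217 against 53.8 CPM, Tmem213 at 135 against 48.8 CPM and Msln at 5284 against 2067 CPM. In CRPR2 they were led by Dsc3, a desmosome gene, at 315 against 25.6 CPM. The basal keratin Krt5 was at 6746 against 726 CPM there and the squamous keratin Krt13 at 2225 against 183 CPM. The glycerol channel gene Aqp3 was at 5558 against 601 CPM and the hemidesmosome gene Col17a1 at 2139.7 against 233 CPM. Krt13 and Krt5 were among the 10 of RPR2 too, at 250 against 115 CPM and 594 against 289 CPM. Serpinb11 and Muc16 were likewise among the 10 of CRPR2, at 806 against 108 CPM and 4152 against 773 CPM. The mesothelial markers, which include Muc16 and Msln, summed to 6246 against 3979 CPM in RPR2, where 2 of 4 were higher, compared with 9335 against 2521 CPM and 3 of 4 in CRPR2. The 8 NE check genes summed to 3744 against 3595 CPM in RPR2, where 6 of 8 were higher in the holding cells. In CRPR2 they summed to 3091 against 24056 CPM, where 0 of 8 were higher. Of all panel genes 34.6% were higher in each section.

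Partner genes were then sought over each whole range, as the 10 panel genes with the largest ratio of CPM in holding over other cells in both sections, among genes with 100 CPM or more in the holding cells of both. In NE-low cells the leading partners of Upk1b included mesothelial, barrier and secretory airway genes. The mesothelial uroplakin Upk3b was at 7788 against 252 CPM in RPR2 and at 1634 against 97.0 CPM in CRPR2. It was found in 16.4% of the holding cells of RPR2 and in 4.32% of those of CRPR2. Muc16 was at 2177 against 65.6 CPM in RPR2 and 1058 against 121 CPM in CRPR2, and Krt5 at 411 against 37.5 CPM and 1207 against 109.7 CPM. The others were Krt13, Serpinb11, Aqp3, Msln, the antimicrobial lectin Reg3g, the mucin-folding protein Agr2 and Oit1, with log2 ratios of 2.49 to 4.61 for RPR2 and 1.70 to 3.57 for CRPR2. Of the lists, 3 of 4 mesothelial markers and all 3 squamous and barrier genes over 100 CPM, of 4 on the panel, were 1 log2 unit or more higher in the holding cells of both sections, as were 5.92% of the 287 genes compared. Of the 9 secretory airway genes over 100 CPM, of 11, 3 were, and their medians were 3.41 log2 units in RPR2 and 0.39 in CRPR2. The 7 fibroblast genes over 100 CPM, of 8, had medians of -1.78 in RPR2 and 0.85 in CRPR2. Over all genes compared the medians were -0.31 and -0.21.

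In NE-high cells the partners of Upk1b included many genes of secretory airway cells. Msln led, at 6748 against 553 CPM in RPR2 and 2242 against 189 CPM in CRPR2. Reg3g was at 10007 against 1327 CPM in RPR2 and 1958 against 125 CPM in CRPR2. Agr2, the trefoil factor Tff2, Anxa8, Ccdc80, Serpina10, Serpinb11, the ciliary gene Ccdc153 and Cp, the copper oxidase ceruloplasmin, followed, with log2 ratios of 1.90 to 3.55 for RPR2 and 1.79 to 2.86 for CRPR2. Of the 9 secretory airway genes over 100 CPM, of 11 on the panel, 6 were 1 log2 unit or more higher in both sections, against 10.2% of the 246 genes compared. None of the 8 NE check genes was, and their medians were -0.43 log2 units in RPR2 and -0.31 in CRPR2, beside -0.08 and 0.16 over all genes compared. The 3 fibroblast genes over 100 CPM, of 8, differed between the sections, with medians of -2.01 log2 units in RPR2 and 2.02 in CRPR2. Of the NE-high holding cells, 19.5% in RPR2 and 6.07% in CRPR2 held 2 or more Upk1b transcripts.

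Upk3a had a different set of partners. In NE-low cells these were led by Rhcg, an ammonia channel gene, at 157 against 11.6 CPM in RPR2 and at 274 against 11.2 CPM in CRPR2. Few holding cells had it, 1.04% in RPR2 and 1.77% in CRPR2, against 0.117% and 0.119% of the others. Cldn2, a pore-forming claudin, was at 851 against 50.9 CPM and 2214 against 289 CPM, and the intestinal mucin Muc2 at 279.9 against 36.7 CPM and 1005 against 99.5 CPM. Gabrp, a GABA receptor subunit of epithelia, was found in 56.8% of the holding cells against 12.9% of the others in RPR2 and in 70.5% against 16.5% in CRPR2. Iyd, Prom2, the transcription factors Sox9 and Spdef, 5330417C22Rik and Gpa33 completed the 10, with log2 ratios of 2.03 to 3.32 for RPR2 and 1.95 to 2.58 for CRPR2.

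NE genes were also higher in the NE-low cells that held Upk3a. All 8 NE check genes were 1 log2 unit or more higher in the holding cells of both sections, as were the 5 score genes, against 21.1% of the 304 genes compared. Scg2 was at 1601 against 96.8 CPM in RPR2 and at 2861 against 829 CPM in CRPR2. Of 5 cycling genes 4 were higher in the same way, with the proliferation marker Mki67 at 2228 against 422 CPM in RPR2 and 8010.3 against 2853 CPM in CRPR2. So were 10 of the 14 tight junction and simple epithelium genes over 100 CPM, of 16. Endothelial, fibroblast and mural markers were 1 log2 unit or more lower in both sections for 6 of 8, 5 of 7 and 6 of 8 genes, where 22% of the genes compared were. Of the NE-low holding cells, 30.4% in RPR2 and 48.4% in CRPR2 had a score of 1 rather than 0. Of all NE-low cells, 3783 of 136510 in RPR2 and 24706 of 137569 in CRPR2 had that score. Upk3a was held by 6.19% of cells scoring 1 and 0.404% of those scoring 0 in RPR2. In CRPR2 these shares were 26.8% and 6.27%. Among NE-low cells without a transcript of any of the 8 NE check genes (83.2% of NE-low cells in RPR2 and 53.5% in CRPR2), Upk3a was at 29.9 CPM (26.8 to 33.2) in RPR2 compared with 316 CPM (304 to 329) in CRPR2, which gives a log2 ratio of 3.40.

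By gate, the highest Upk3a level was in the small gate on ionocyte and proton pump markers, at 2957 CPM (960.1 to 6900.3) over 18 cells in RPR2 compared with 10794 CPM (9370.1 to 12373) over 218 cells in CRPR2, of which 45.9% held it. Of the 3 markers of that gate on the panel, 1 in RPR2 and 2 in CRPR2 were among its 10 leading genes. The gate gave 0.450% and 0.688% of the NE-low Upk3a transcripts. Most lay in the secretory airway and AT2 ranges. Secretory-airway-gated cells were at 167 CPM (143 to 194) in RPR2 compared with 6569.8 CPM (6451 to 6690) in CRPR2, 39.3-fold higher in CRPR2, with holding shares of 1.39% and 28.4%. AT2-gated cells were at 236 CPM (216 to 257) and 3424 CPM (3363 to 3486), with shares of 1.56% and 17.8%. Cells in no gate were at 191 CPM (167 to 218) and 2600.2 CPM (2526 to 2676). Endothelial-gated cells, which are not known to use Upk3a, were at 13.2 CPM (10.3 to 16.6) and 201 CPM (187 to 217), with shares of 0.143% and 1.87% at median totals of 103 and 104 transcripts. The secretory airway and AT2 gates had medians of 112 and 110 transcripts in RPR2 and 102 and 117 in CRPR2. They held 15.8% and 46.6% of the NE-low Upk3a transcripts in RPR2 and 39.0% and 39.8% in CRPR2, and without both gates NE-low Upk3a was at 37.3 CPM in RPR2 compared with 648 CPM in CRPR2.

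In both gates the cells that held Upk3a had more NE transcripts than the rest of the gate, and fewer transcripts of the gate's own markers. The AT2 markers summed to 120889 against 203186 CPM in CRPR2 and 139377 against 202038 CPM in RPR2, with 0 of 4 higher in each. The secretory airway markers summed to 122826 against 171571 CPM in CRPR2, with 2 of 11 higher, and 150435 against 193201 CPM in RPR2, with 3 of 11 higher. In the 4501 secretory-airway-gated holding cells of CRPR2 the 8 NE check genes summed to 36759.7 against 16194 CPM, 8 of 8 higher where 44.2% of panel genes were, and the 5 cycling genes to 23784 against 7315 CPM. In the 4923 AT2-gated holding cells of CRPR2 the NE check sum was 33623 against 9119 CPM, 8 of 8 higher where 43.8% of panel genes were, and the cycling sum 19513 against 8035 CPM. In RPR2 the NE check genes summed to 21636 against 3354 CPM in the 123 secretory-airway-gated holding cells, 8 of 8 higher where 43.8% of panel genes were. In the 296 AT2-gated holding cells of RPR2 they summed to 23968 against 2542 CPM, 8 of 8 higher where 44.4% of panel genes were. The leading gene of the CRPR2 secretory-airway-gated holding cells was Kng2, a kininogen gene, at 1521 against 56.4 CPM, with Rhcg at 352 against 13.5 CPM and the endocytic receptor gene Lrp2 at 2793 against 351 CPM. The part of NE tumor cells with few score counts in these gates was not tested.

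Within NE-high cells, alveolar genes were among the partners of Upk3a. Cldn2 led, at 485 against 95.9 CPM in RPR2 and 717 against 171 CPM in CRPR2, followed by Lrp2 at 689.8 against 113 CPM and 636 against 161 CPM, and Muc2 at 150 against 27.8 CPM and 225 against 66.9 CPM. The lamellar body gene Lamp3 was at 5308 against 1191 CPM in RPR2 and at 3451 against 1160.3 CPM in CRPR2. Sfta2, AU021092, the water channel gene Aqp5, Iyd, the proton pump gene Atp6v1b1 and Spdef had log2 ratios of 1.28 to 2.17 for RPR2 and 1.37 to 1.60 for CRPR2. All 4 AT2 markers and both AT1 (alveolar type 1) markers were 1 log2 unit or more higher in both sections, against 10.3% of the 252 genes compared. None of the 8 NE check genes was, and their medians were -0.24 log2 units in RPR2 and -0.25 in CRPR2.

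**Figure D4:**
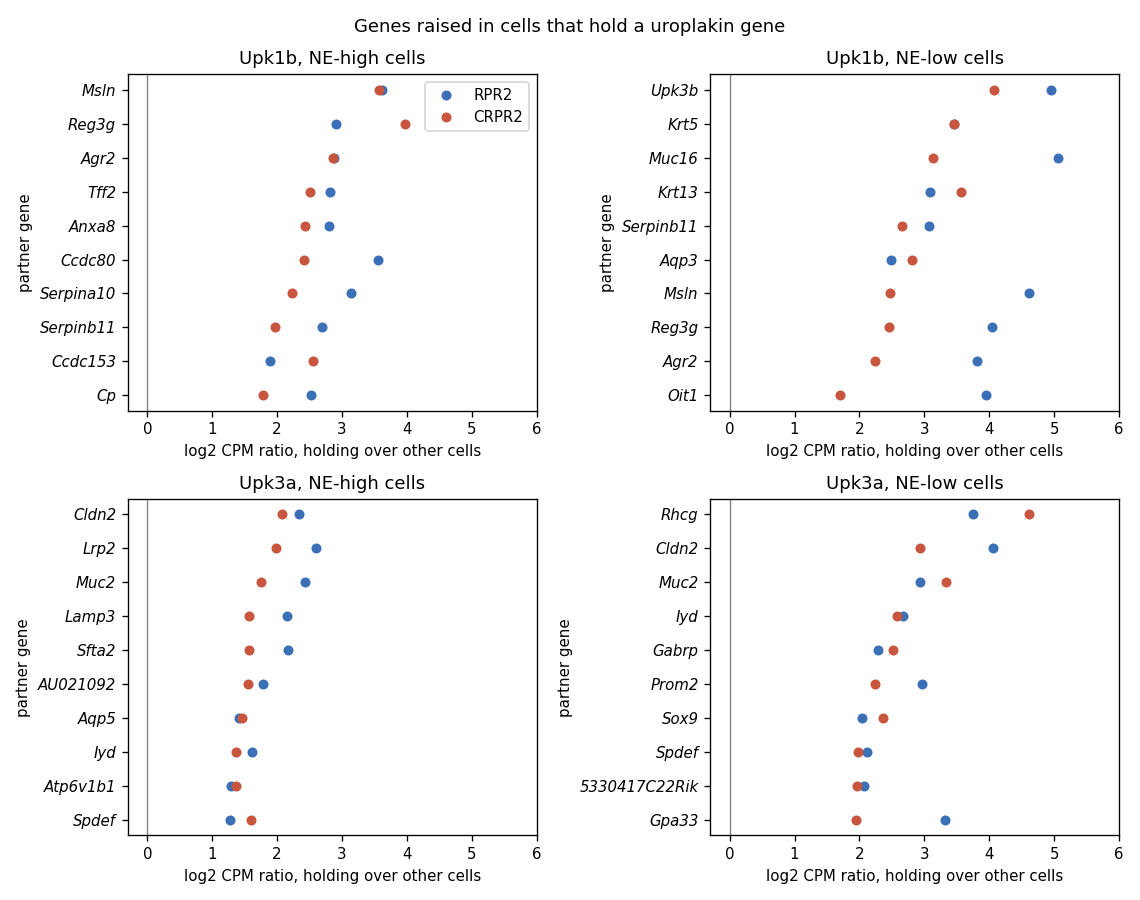
Log2 ratio of CPM in cells that hold Upk1b (top) or Upk3a (bottom) over the other cells of the same range, NE-high (left) or NE-low (right), for the 10 partner genes of each, in RPR2 (blue) and CRPR2 (red). Each list is ordered by the smaller of the 2 ratios, so both points of every gene lie above 0. Msln leads the Upk1b partners in NE-high cells (3.61 and 3.57) and Rhcg the Upk3a partners in NE-low cells (3.75 and 4.62).

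Cells with both genes were rare. In all, 70 cells of RPR2 and 190 cells of CRPR2 held both, and 7 cells of each section held at least 2 transcripts of both genes. In NE-high cells of RPR2, Upk3a was found in 10.4% (7.20 to 14.5) of the cells with Upk1b and in 10.1% of the cells without it, a log2 odds ratio of 0.06 (-0.54 to 0.60). In NE-high cells of CRPR2 the shares were 18.2% (14.7 to 22.2) and 22.3%, a log2 odds ratio of -0.37 (-0.74 to -0.01).

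NE-low cells of CRPR2 held both genes less often than their single frequencies give. Upk3a was found in 1.09% (0.868 to 1.36) of the cells with Upk1b and in 10.5% of those without it, a log2 odds ratio of -3.40 (-3.74 to -3.08) from 80 cells with both. In NE-low cells of RPR2 it was found in 0.695% (0.441 to 1.04) and 0.561%, a log2 odds ratio of 0.31 (-0.36 to 0.91) from 23 cells with both. Within the secretory airway gate the log2 odds ratio was -4.84 (-5.68 to -4.11) in CRPR2, where 15 cells held both, 993 Upk1b alone and 4486 Upk3a alone. It was -0.30 (-1.05 to 0.40) in RPR2, where 21 cells held both, 1767 Upk1b alone and 102 Upk3a alone. Within the AT2 gate of CRPR2 it was -3.49 (-4.13 to -2.92), and within the fibroblast gate -1.18 (-1.88 to -0.55). Holding a gene depends on the total of a cell, and pooled over 10 strata of total the NE-low log2 odds ratios were 0.16 in RPR2 and -3.43 in CRPR2 and the NE-high ones -0.39 and -0.75. In NE-low cells of CRPR2 without a transcript of the 8 NE check genes the log2 odds ratio was -1.998. The same set of RPR2 has no odds ratio, since no cell held both. Among its 113553 cells, 2486 held Upk1b and 300 held Upk3a. For 2 or more transcripts of each gene, the value in NE-high cells of CRPR2 was 0.12, with an interval of -3.01 to 2.13 from 2 cells with both, which spans 0. The interval of the value for 1 or more also spanned 0 with NE-high from a score of 6, with Chga, Scg5, Snap25 or Celf3 left out of the score, and after thinning to 50 transcripts (-0.13, interval -0.86 to 0.52).

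**Figure D5:**
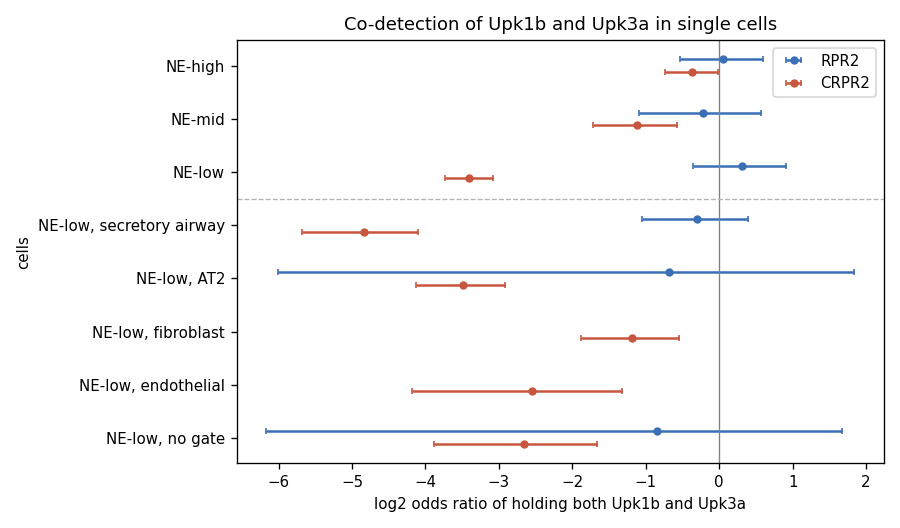
Log2 odds ratio of holding both Upk1b and Upk3a in the NE-high, NE-mid (scores of 2 and 3) and NE-low cells, and in marker gates of the NE-low cells, for RPR2 (blue) and CRPR2 (red), with exact 95% intervals for counting error. At 0 the genes are found together as often as their frequencies give. The CRPR2 points of the NE-low range (-3.40) and of the secretory airway gate (-4.84) lie far below 0, and RPR2 has no point in the fibroblast and endothelial gates, where no cell held both.

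Of the other uroplakins on the panel, Upk3b in NE-low cells was at 469 CPM in RPR2 compared with 201 CPM in CRPR2, which gives a log2 ratio of -1.23 (-1.29 to -1.16), where 7% of the genes compared were 1 log2 unit or more towards RPR2. Of its NE-low transcripts 70.6% in RPR2 and 68.9% in CRPR2 lay in the mesothelial gate, of which Upk3b is itself a marker. In NE-high cells Upk3b was at 3.66 and 4.23 CPM, within the range of the negative control probes. Upk1a was at 108 and 73.1 CPM in NE-high cells and at 133 and 69.8 CPM in NE-low cells, lower in CRPR2 in both.

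Likeness of pattern was measured as the Pearson correlation of log2(CPM + 10) over 28 profiles, which share libraries and are not independent. The profiles were the NE-high and NE-mid ranges, the gates of NE-low cells and the NE-low cells in no gate. The ionocyte and cartilage gates were left out for RPR2. The genes most like Upk1b were Msln (0.76), Muc16 (0.67), Anxa8 (0.66), Sbsn (0.64) and Krt13 (0.60). Msln and Muc16 are markers of the mesothelial gate, where Upk1b was highest, so their high level in those profiles was set by the gate. Among the 5 genes most like Upk3a were Ly6h (0.89), Insm1 (0.88), Scg2 (0.88) and Scg3 (0.86). They are NE check genes. The NE-high and NE-mid profiles were defined by the NE score, so a high level of NE genes there was set by the ranges.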

How the data were processed

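RNA was measured in place in 1 RPR2 and 1 CRPR2 section, cut from one embedded block and run on the same slide. The deposited values are counts of transcripts per gene and cell, made by the authors with the Xenium instrument software, which outlined cells by nuclear expansion. The authors worked further in Seurat 4.4.0, but their clusters, the cell positions and the images were not used here. The members and gene lists were chosen with earlier results of these data known.

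A minimum of 20 transcripts removed 1903 RPR2 and 2236 CRPR2 cells. Doublets were not called, and 8 cell names occurred in both sections, whose cells were kept apart by section. Counts were summed over score ranges and 12 marker gates and scaled to CPM. Named partners were the 10 genes with the largest smaller log2 ratio of holding over other cells in both sections, among genes with 100 CPM or more in the holding cells of both sections, with both uroplakins left out of the totals. Likeness took the 5 genes with the highest correlation. Members of the fixed lists were also named, and the genes named within gates were chosen after their values were seen. Intervals at 95% were exact Poisson, binomial (Clopper-Pearson) or conditional, and a count of 0 allows up to 3 counts. Cells are not replicates, so no test was made. Alternatives changed the score limits, score genes, minimum total, scaling, detection threshold and gates. Scripts were tested on simulated data and used Python 3.11.15, numpy 2.4.6, scipy 1.17.1 and pandas 2.3.3. A result for 1 further gene is not reported here.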

Additional observations from a re-analysis of the deposited data

Results flagged for a closer look

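Upk1b in NE-high cells had a log2 ratio of CRPR2 over RPR2 of -3.26 and in NE-low cells of 1.15, and these are listed because the ranges point in opposite directions between the same 2 sections. With 1 section per genotype the difference was not tested.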

How the results depend on the processing

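The values under other settings include some that a setting could not change, such as NE-low ratios under another NE-high limit. Of all 219 values, 159 stayed within the counting interval of the main value. Of 131 values of results whose interval lay clear of 0, 130 kept their direction. The exception was co-detection in NE-high cells of CRPR2, whose log2 odds ratio was 0.12 for 2 or more transcripts of each gene in place of -0.37, with an interval of -3.01 to 2.13. With that threshold it was 1.57 in NE-high cells of RPR2, with an interval of -0.37 to 3.02 that spans 0, from 4 cells with both. In NE-low cells of CRPR2 it was -5.07 (-7.35 to -3.52), from 3 cells with both. The cause of these shifts was not tested.

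The share of transcripts in NE-high cells (RPR2 and CRPR2) was 5.37% and 2.73% for Upk1b and 39.8% and 35.8% for Upk3a with NE-high from a score of 6, and 11.4% and 6.39% for Upk1b and 69.2% and 73.0% for Upk3a with scores of 2 and 3 included. Without Chga it was 6.28% and 3.51% for Upk1b and 45.0% and 43.5% for Upk3a, without Scg5 5.53% and 3.18% for Upk1b and 42.3% and 40.4% for Upk3a, without Snap25 6.45% and 3.16% for Upk1b and 46.6% and 41.8% for Upk3a and without Celf3 6.73% and 3.39% for Upk1b and 47.3% and 42.5% for Upk3a. For Upk3a in CRPR2 it was 49.6% without Chgb, 53.0% with a minimum total of 50 and 51.2% without the top 1 percent of totals.

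The NE-low log2 section ratio was 1.36 for Upk1b and 4.55 for Upk3a at a score of 0 only, where the Upk3a difference of ranges was -3.17 and co-detection in RPR2 -0.51. With scores of 2 and 3 in NE-low, Upk1b had 0.84 and a difference of -4.10. Upk1b in NE-low cells had 1.06 without Chga, 1.02 without Scg5 (difference -4.15), 1.05 without Snap25, 1.06 without Celf3 and 1.10 without the 5 most abundant genes in the scaling. As a share of cells thinned to 50 transcripts, Upk3a had 4.50 in NE-low cells and a difference of -3.17. As a share of cells with 2 transcripts or more, Upk1b had -4.70 in NE-high cells and a difference of -5.90, and Upk3a 1.54 in NE-high cells, 5.05 in NE-low cells and a difference of -3.52. Co-detection was -3.86 in thinned NE-low cells of CRPR2 and -0.75 in NE-high cells of CRPR2 over 10 strata of total. The share of NE-low Upk1b transcripts in cells with 1 Msln transcript or more was 41.2% in RPR2 and 11.7% in CRPR2.

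Other settings were chosen after seeing the data. In NE-low cells without the 8 NE check genes, the log2 ratio was 1.66 for Upk1b and 3.40 for Upk3a, and co-detection -1.998 in CRPR2, with no value in RPR2, where 0 cells held both. The Upk1b ratio was 0.43 without the fibroblast gate, the Upk3a ratio 4.12 without the secretory airway and AT2 gates, and with each gate weighted by its share in RPR2 they were 1.25 and 4.13. No paired analysis was possible because each genotype has 1 section and no result comes from a test. Levels up to 9.94 CPM lie within the range of the negative control probes.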
